A study of Mus musculus with 10 samples.

Results

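The 8 genes described here belong to adipose hormone signalling and were followed across 10 RNA sequencing libraries of mouse breast cancer cells. They are Adipoq, which encodes the fat cell hormone adiponectin, the adiponectin receptor genes Adipor1 and Adipor2, the adiponectin-binding cadherin gene Cdh13, and the adipokine genes Lep, Retn, Rbp4 and Nampt. They were taken by name, through the NCBI gene identifiers of the deposited count table, and all 8 of them had a row among its 18103 genes. Of these, 6 had enough counts to be tested among 13149 genes in all, and Retn and Rbp4 did not. In both lines, Adipoq was near the detection floor in control cells and abundant after treatment. Adipor2 rose with rosiglitazone and with the MEK inhibitor alone, where Adipor1 was not called, Cdh13 and Lep separated the lines, and Nampt was highest with BMP2 plus the MEK inhibitor.

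Adiponectin is a secreted protein of the C1q and TNF superfamily that fat cells assemble into multimers, and it is a widely used secreted marker of the mature adipocyte. AdipoR1 and AdipoR2 are membrane proteins of the PAQR family that signal towards AMPK, PPARα and ceramide breakdown, whereas T-cadherin, the product of Cdh13, is anchored in the membrane by a lipid, has no cytoplasmic tail, and binds the large adiponectin multimers. Leptin signals satiety to the brain, resistin is a fat cell hormone of rodents, RBP4 carries retinol in blood, and NAMPT makes the NAD precursor nicotinamide mononucleotide inside cells and is also secreted under the name visfatin.

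Both lines are mesenchymal mouse mammary cancer lines, and all libraries were made after 7 days. MTΔECad cells lack E-cadherin by deletion, in their treated and control groups alike, and were sampled with rosiglitazone, an agonist of the adipogenic nuclear receptor PPARγ, and as controls. Py2T-LT cells are the long-term form of the Py2T line and were sampled with BMP2 plus a MEK inhibitor (the combination), with the MEK inhibitor alone, and as controls. The protocol's doses are 2 µM rosiglitazone, 200 ng/ml BMP2 and 40 µM of the MEK inhibitor PD98059, with DMSO medium for controls. The same protocol adds rosiglitazone after BMP2, but the labels of the Py2T-LT libraries name none, and it is therefore unknown whether those cells received it. No group had BMP2 alone, and rosiglitazone alone was sampled in MTΔECad cells only.

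Each of the 5 groups had 2 libraries, from 2 independent experiments per the labels, and p-values measure the spread between these libraries. Totals were 14659987 to 17249199 counts per library, so a single count stood for up to 0.0696 CPM, and the floor of 3 counts for up to 0.209 CPM. Levels are in CPM on TMM-scaled library sizes, and differences are log2 fold changes with their standard error (SE) from edgeR's quasi-likelihood test across all 13149 genes. A gene is said to rise or fall where the Benjamini-Hochberg adjusted p over all of them is under 0.05. Cdh1, the gene of E-cadherin, stood at 3.81 ± 1.12 CPM with rosiglitazone and 2.41 ± 0.228 CPM in control MTΔECad cells, against 33.8 ± 3.04 CPM in control Py2T-LT cells (SD, n = 2 each). Summed over 10 genes each, mesenchymal markers were at 9339 to 18770 CPM per library and epithelial markers at 283 to 692 CPM. Epithelial markers summed to 418 to 463 CPM with rosiglitazone and 283 to 294 CPM in its controls (4 of 7 tested rose), and to 312 to 335 CPM with the combination, 589 to 674 CPM with the MEK inhibitor and 642 to 692 CPM in Py2T-LT controls (4 fell and 1 rose with the combination, 3 fell and 1 rose with the MEK inhibitor). Mesenchymal markers summed to 12550 to 12760 CPM with rosiglitazone and 16360 to 18770 CPM in its controls (2 of 9 tested fell). In Py2T-LT cells they summed to 10290 to 11110 CPM with the combination, 9500 to 9906 CPM with the MEK inhibitor and 9339 to 12050 CPM in controls. There 2 rose and 2 fell with the combination, and 2 rose and 1 fell with the MEK inhibitor. Over all genes 13.2% were called with rosiglitazone, 38.5% with the combination and 16.5% with the MEK inhibitor. The part of the marker shifts in the members' results was not tested. Summed haematopoietic markers reached at most 8.53 CPM in a library (6 of 10 had a row), endothelial markers 4.85 CPM (7 of 8) and skeletal muscle markers 5.04 CPM (4 of 8). Of these, Itgam, Spi1, Laptm5, Pecam1, Cdh5, Kdr, Emcn, Vwf, Tnnt3, Des, Acta1 and Lyz2 were at 0 counts in at least 1 library. The others had counts in every library: Cd68 (2.04 to 7.17 CPM), Csf1r (0.185 to 0.871), Egfl7 (0.757 to 3.23), Tek (0.067 to 1.25) and Myh1 (0.116 to 4.39). Summed adipocyte markers, with a row for all 15, ran from 6687 to 7384 CPM with rosiglitazone and 2713 to 2915 CPM in control MTΔECad cells. In Py2T-LT cells they ran from 2071 to 2197 CPM with BMP2 plus the MEK inhibitor, 1546 to 1654 CPM with the MEK inhibitor and 1078 to 1098 CPM in controls. Lpl was the highest marker in every group, at 1853, 1640, 775, 668 and 562 CPM in this order, so the sums do not rank the groups by adipocyte state. In the same order, 13, 9, 14, 13 and 9 of the 15 had a mean of at least 1 CPM.

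On the mouse assembly GRCm38.p6, RefSeq places Adipoq (NCBI Gene 11450) on chromosome 16 at 23146536 to 23157968, plus strand, and Adipor1 (72674) on chromosome 1 at 134415378 to 134433351, plus strand. Adipor2 (68465) lies on chromosome 6 at 119353150 to 119417699, minus strand, and Lep (16846) on the same chromosome at 29060221 to 29073876, plus strand. Cdh13 (12554) spans 118140017 to 119324929 of chromosome 8, plus strand, and Retn (57264) spans 3655770 to 3659818 there, plus strand. Rbp4 (19662) lies on chromosome 19 at 38116620 to 38125321, minus strand, and Nampt (59027) on chromosome 12 at 32820335 to 32853369, plus strand. The table gives 1 count per gene, so isoforms were not separated.

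RefSeq promoter windows of 300 bases, from 250 before a start to 50 after it, were found for 7 of the 8 genes. Adipoq and Adipor2 are shown because both were higher with rosiglitazone and with the MEK inhibitor, Lep because its counts were limited to 1 line, and Nampt because its level was highest with BMP2 plus the MEK inhibitor. Capitals mark the CCAAT boxes of Adipoq, a C/EBP palindrome (TTGCNNAA) in Lep and the palindromic SMAD1/5 GC site (GGCGCC) in Nampt. The Adipor2 window held none of the 8 motifs searched and has no capitals. It lies inside the gene's span. The gene's outermost start on the minus strand, at 119417699, had no window and was not searched. Each window reads 5′ to 3′ on the gene's strand.
Adipoq (chr16:23146286-23146585, plus strand): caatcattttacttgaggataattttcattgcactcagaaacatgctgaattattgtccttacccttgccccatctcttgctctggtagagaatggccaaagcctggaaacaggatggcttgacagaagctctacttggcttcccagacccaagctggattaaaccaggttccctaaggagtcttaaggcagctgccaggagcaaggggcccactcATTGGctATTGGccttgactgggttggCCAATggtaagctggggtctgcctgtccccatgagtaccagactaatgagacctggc
Adipor2 (chr6:119388685-119388984, minus strand): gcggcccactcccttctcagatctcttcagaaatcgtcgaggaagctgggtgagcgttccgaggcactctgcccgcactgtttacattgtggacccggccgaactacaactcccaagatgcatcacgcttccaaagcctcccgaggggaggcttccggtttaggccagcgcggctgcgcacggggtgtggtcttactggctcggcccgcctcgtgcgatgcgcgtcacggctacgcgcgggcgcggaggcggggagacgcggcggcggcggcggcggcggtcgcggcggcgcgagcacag
Lep (chr6:29059971-29060270, plus strand): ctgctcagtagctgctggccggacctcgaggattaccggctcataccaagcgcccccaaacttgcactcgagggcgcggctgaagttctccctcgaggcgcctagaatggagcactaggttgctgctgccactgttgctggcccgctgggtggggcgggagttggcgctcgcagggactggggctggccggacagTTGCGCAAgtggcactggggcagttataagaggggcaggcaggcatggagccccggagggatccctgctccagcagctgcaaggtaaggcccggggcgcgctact
Nampt (chr12:32820085-32820384, plus strand): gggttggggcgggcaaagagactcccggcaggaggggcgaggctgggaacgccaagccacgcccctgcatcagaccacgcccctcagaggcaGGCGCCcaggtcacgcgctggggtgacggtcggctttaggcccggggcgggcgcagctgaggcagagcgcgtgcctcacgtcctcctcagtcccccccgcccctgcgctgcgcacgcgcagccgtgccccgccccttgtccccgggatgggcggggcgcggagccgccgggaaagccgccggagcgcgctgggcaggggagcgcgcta

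The 8 motifs were searched on both strands: the direct repeat of PPAR and RXR (by its consensus, with a free base between the repeats), the nuclear receptor element AGGTCA, the C/EBP palindrome, the CCAAT box, the E-box (CACGTG), the SREBP1 E-box (ATCACNTGA), GGCGCC and the TATA box (TATAAA). The element AGGTCA can lie within a direct repeat, and a palindrome matches both strands at 1 place. The Adipoq window held CCAAT at 3 places that begin 34, 27 and 7 bases before the start, without overlap; at least 1 CCAAT was present in 37.4% of 32851 promoter windows and 3 or more in 3.37%. The Lep window held TTGCNNAA 55 bases before the start (10.8% of windows) and GGCGCC 154 bases before it. The Nampt window held GGCGCC 158 bases before the start (11.9% of windows) and, next to it, AGGTCA 151 bases before it (16.3%). The PPAR and RXR direct repeat was present in 0.381% of windows and in none of the windows of these genes. A match of letters is a description of the window only, and the libraries measured no binding.

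**Figure D1:**
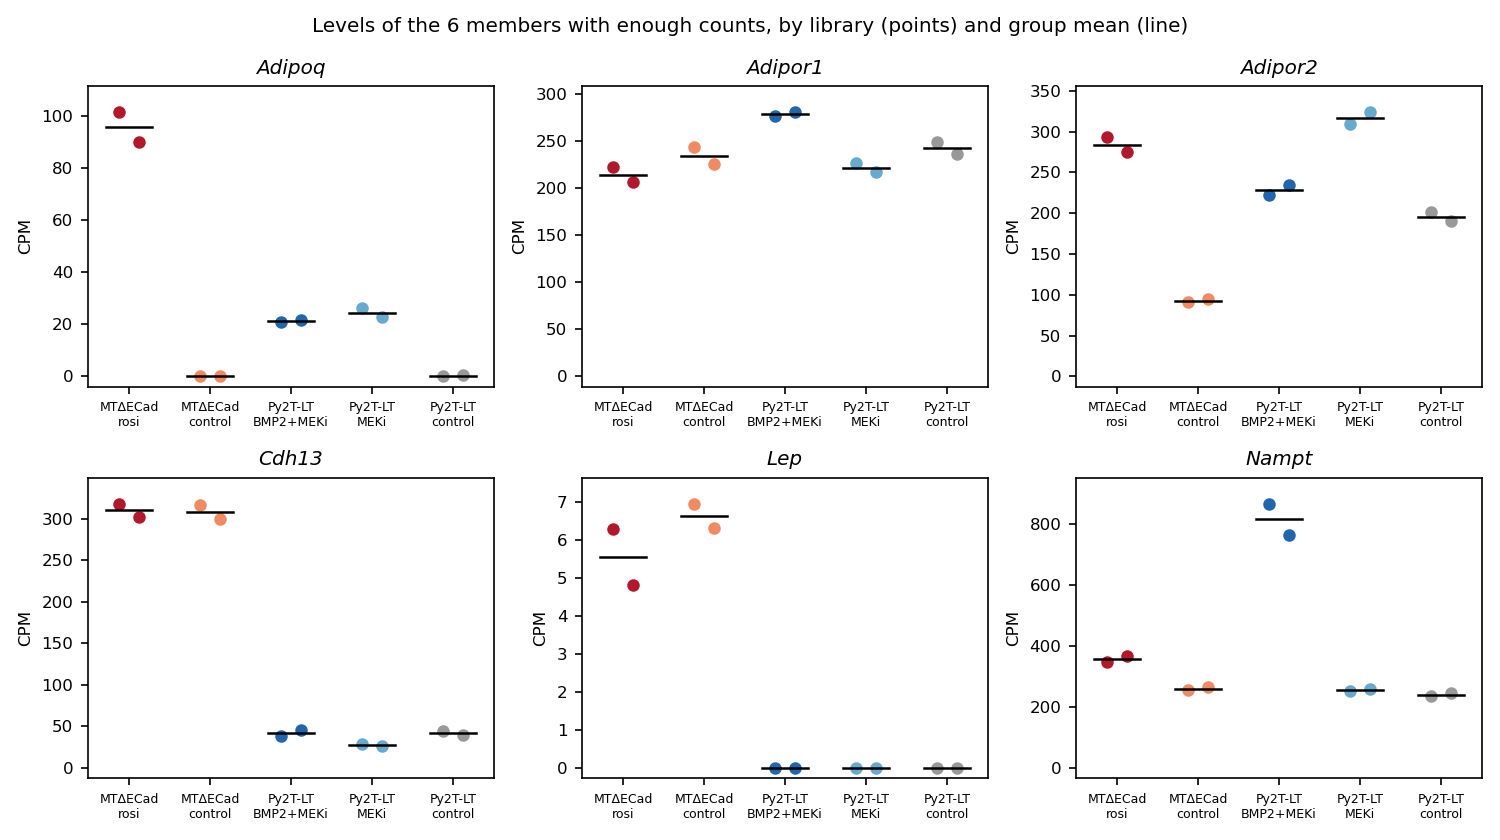
Level in CPM (TMM-scaled, linear axis from 0) of the 6 genes with enough counts in each library (points; line, mean of 2 libraries), for the 5 groups. Adipoq was near 0 in both control groups, Cdh13 and Lep were high in MTΔECad cells alone, and Nampt stood highest with BMP2 plus the MEK inhibitor.

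Adiponectin transcripts appeared with each treatment. Adipoq was at 102 and 90.0 CPM (1548 and 1309 counts) with rosiglitazone, and at 0.0696 and 0 CPM (1 and 0 counts) in control MTΔECad cells. It was at 20.9 and 21.6 CPM (312 and 371 counts) with BMP2 plus the MEK inhibitor and at 26.1 and 22.8 CPM (404 and 416 counts) with the MEK inhibitor alone, against 0.0616 and 0.4999 CPM (1 and 8 counts) in control Py2T-LT cells. Every treated library lay far above every control library, and the treated Py2T-LT libraries lay far below those with rosiglitazone.

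With rosiglitazone, the ratio of Adipoq counts to control was 2910 (exact 95% counting interval 522 to 115000, the upper end being wide because the control held 1 count), with edgeR adjusted p = 1.95e-15. Among Py2T-LT cells the ratio was 87.1 (45.6 to 191) for the MEK inhibitor against control, with edgeR adjusted p = 2.43e-12. For BMP2 plus the MEK inhibitor it was 76.1 (39.9 to 167) against the same controls, with edgeR adjusted p = 6.35e-13. The control level rests largely on 1 library: without Py2T-LT control replicate 2, which held 8 of the 9 counts, the fitted log2 fold change of the MEK inhibitor was 8.45 and without replicate 1 it was 5.59, against 6.41 ± 0.28 (SE) with both. For the combination the same fits gave 8.25 and 5.39, against 6.21 ± 0.28. In MTΔECad cells the fitted log2 fold change of rosiglitazone was 10.3 without control replicate 2 and 13.6 without control replicate 1, which leaves a control at 0 counts, against 11.2 ± 0.32 with both. In these bulk libraries, more cells with the transcript and more transcript per cell cannot be told apart.

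Adding BMP2 to the MEK inhibitor did not move Adipoq past the test: the groups lay at 21.2 ± 0.481 CPM with BMP2 and 24.4 ± 2.35 CPM without it (SD, n = 2 each), a log2 difference of -0.20 ± 0.14 (edgeR adjusted p = 0.275). Adipoq was 2.17 ± 0.13 log2 units higher with rosiglitazone in MTΔECad cells than with BMP2 plus the MEK inhibitor in Py2T-LT cells (edgeR adjusted p = 1.44e-11). Line and treatment differ together in that comparison and cannot be told apart. Between the untreated lines, 1 count in MTΔECad and 9 in Py2T-LT gave a ratio of 0.118 (0.00269 to 0.852). That difference passed edgeR's test (adjusted p = 0.0369), but not DESeq2's (adjusted p = 0.0746), nor edgeR's without MTΔECad control replicate 2 (0.21) or without Py2T-LT control replicate 2 (0.731).

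**Figure D2:**
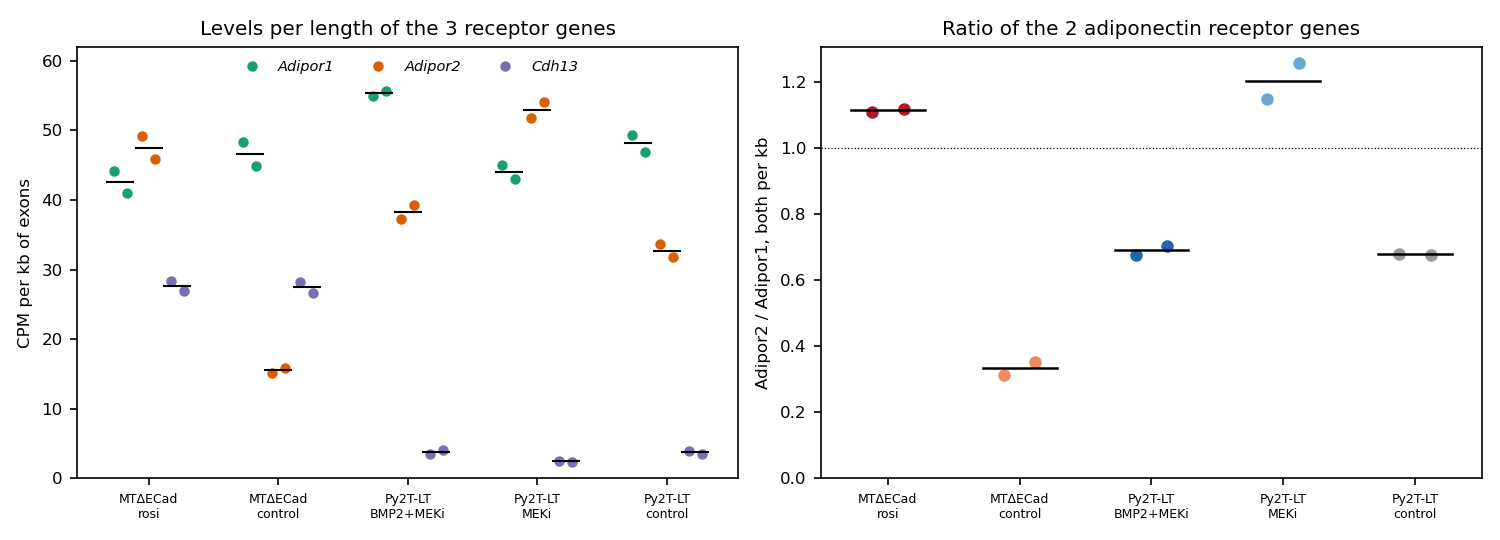
Left, level per length (CPM per kb of exons, linear axis from 0) of Adipor1, Adipor2 and Cdh13 in each library of the 5 groups (points; line, mean); right, the ratio of Adipor2 to Adipor1 per kb (dotted line at 1). The ratio was above 1 with rosiglitazone and with the MEK inhibitor alone, and between 0.314 and 0.705 in the other 3 groups.

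Of the receptor genes, Adipor2 responded in both lines. It was at 294 and 274 CPM with rosiglitazone and at 90.7 and 94.8 CPM in control MTΔECad cells. In Py2T-LT cells it was at 223 and 235 CPM with BMP2 plus the MEK inhibitor, at 310 and 324 CPM with the MEK inhibitor, and at 201 and 190 CPM in controls. By group mean, the order from high to low was MEK inhibitor, rosiglitazone, BMP2 plus MEK inhibitor, Py2T-LT control and MTΔECad control.

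Adipor2 rose 3.06-fold with rosiglitazone (log2 1.61 ± 0.08, edgeR adjusted p = 1.41e-12) and 1.62-fold with the MEK inhibitor (0.70 ± 0.07, edgeR adjusted p = 6.1e-07). With BMP2 added it was lower than with the MEK inhibitor alone, by 0.47 ± 0.07 log2 units (edgeR adjusted p = 2.49e-05), and 0.23 ± 0.07 above control (edgeR adjusted p = 0.0185). The last call ended when either replicate 2 of the combination (adjusted p = 0.121) or replicate 2 of its controls (0.131) was left out. Control MTΔECad cells had less Adipor2 than control Py2T-LT cells, by 1.08 ± 0.08 log2 units (edgeR adjusted p = 8.92e-11).

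Adipor1 stayed within a narrower range. It was at 222 and 206 CPM with rosiglitazone and at 243 and 226 CPM in control MTΔECad cells. In Py2T-LT cells it was at 276 and 280 CPM with BMP2 plus the MEK inhibitor, at 226 and 216 CPM with the MEK inhibitor, and at 248 and 236 CPM in controls. Its mean was highest with BMP2 plus the MEK inhibitor, while the remaining 4 groups formed a chain in which each overlapped the next.

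Adipor1 was 0.33 ± 0.07 log2 units higher with BMP2 plus the MEK inhibitor than with the inhibitor alone (edgeR adjusted p = 0.00121). Against control the combination gave 0.20 ± 0.07 (edgeR adjusted p = 0.0357), a call that ended when any 1 of the 4 libraries was left out (adjusted p 0.0508 to 0.191) and when only the compared groups were fitted (0.0742). Rosiglitazone gave -0.13 ± 0.07 (edgeR adjusted p = 0.313), the MEK inhibitor -0.13 ± 0.07 (0.28) and the line comparison -0.05 ± 0.07 (0.605).

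Per kb of exons, the Adipor2 to Adipor1 ratio was 1.11 and 1.12 with rosiglitazone and 0.314 and 0.353 in control MTΔECad cells. It was 0.678 and 0.705 with BMP2 plus the MEK inhibitor, 1.15 and 1.26 with the MEK inhibitor alone, and 0.681 and 0.678 in Py2T-LT controls. The ratio with the combination overlapped that of its controls, whereas rosiglitazone and the MEK inhibitor alone each lay wholly above theirs. Exon lengths of 5.98 kb for Adipor2 and 5.03 kb for Adipor1 come from GENCODE M21 and count every annotated exon.

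Cdh13 separated the lines and was not called with rosiglitazone. It was at 318 and 302 CPM with rosiglitazone and at 317 and 300 CPM in control MTΔECad cells. In Py2T-LT cells it was at 38.5 and 45.5 CPM with BMP2 plus the MEK inhibitor, at 28.8 and 26.4 CPM with the MEK inhibitor alone, and at 43.7 and 39.7 CPM in controls. The MTΔECad groups overlapped, the combination overlapped the Py2T-LT controls, and the MEK inhibitor alone was lowest.

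Control MTΔECad cells held 7.40 times the Cdh13 of control Py2T-LT cells (log2 2.89 ± 0.09, edgeR adjusted p = 1.35e-16). The MEK inhibitor lowered Cdh13 by 0.60 ± 0.10 log2 units (edgeR adjusted p = 0.000111), and with BMP2 added it was 0.61 ± 0.10 higher than with the inhibitor alone (edgeR adjusted p = 2.73e-05). The combination differed from control by 0.01 ± 0.09 (edgeR adjusted p = 0.937), and rosiglitazone differed from its control by 0.01 ± 0.08 (edgeR adjusted p = 0.996).

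**Figure D3:**
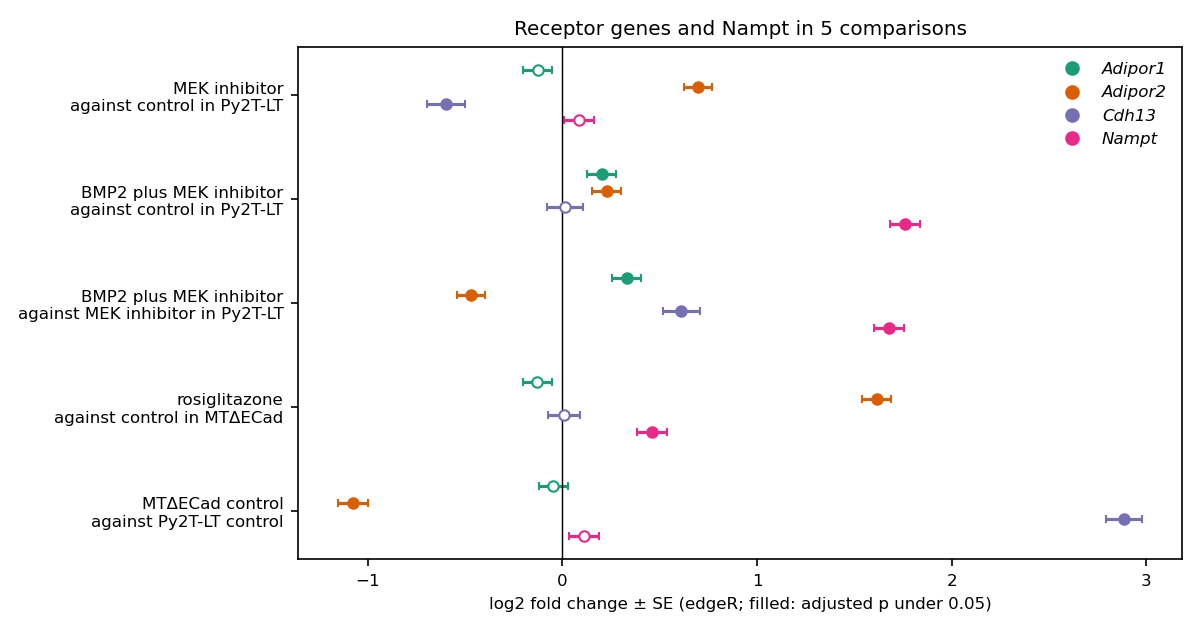
Log2 fold change (points; bars, SE) of Adipor1, Adipor2, Cdh13 and Nampt in 5 comparisons, each the first-named group over the second; filled points have an edgeR adjusted p under 0.05. Adipor2 reached 1.61 with rosiglitazone, Nampt 1.76 with BMP2 plus the MEK inhibitor and Cdh13 2.89 between the control lines.

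Leptin transcripts were found in MTΔECad cells alone. Lep had 96 and 70 counts (6.30 and 4.81 CPM) with rosiglitazone and 100 and 101 counts (6.96 and 6.32 CPM) in control MTΔECad cells. All 6 Py2T-LT libraries, treated or not, had 0 counts, which allows a level of up to 3 counts in each. Its promoter window, shown above, held a C/EBP palindrome.

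Taking 3 counts per library as the floor, Lep was at least 35.7-fold higher in control MTΔECad than in control Py2T-LT cells. It was at least 29.6-fold higher with rosiglitazone than with BMP2 plus the MEK inhibitor. Within MTΔECad cells, rosiglitazone gave a log2 difference of -0.25 ± 0.22, which did not pass the test (edgeR adjusted p = 0.572). Floors and counting intervals cover counting error alone, because the reads carry no molecular identifiers and 1 molecule can give several.

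Resistin and RBP4 were at or below the floor in every library. Retn had 2 and 0 counts with rosiglitazone and 0 in both control MTΔECad libraries, and it had 2 in each library with BMP2 plus the MEK inhibitor, 0 and 1 with the MEK inhibitor, and 0 in both Py2T-LT controls. Rbp4 had 1 count in rosiglitazone replicate 1 and 0 in the other 9 libraries. Neither was tested, and no difference of either gene was detectable at this depth.

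Nampt was abundant throughout and rose most with BMP2 plus the MEK inhibitor. It was at 347 and 367 CPM with rosiglitazone and at 253 and 265 CPM in control MTΔECad cells. In Py2T-LT cells it was at 865 and 764 CPM with BMP2 plus the MEK inhibitor, at 251 and 258 CPM with the MEK inhibitor alone, and at 235 and 245 CPM in controls. The combination lay far above all other groups, rosiglitazone came next, and the MEK inhibitor group overlapped the MTΔECad controls.

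Nampt rose 3.39-fold with BMP2 plus the MEK inhibitor against control (log2 1.76 ± 0.08, edgeR adjusted p = 1.67e-13) and 3.20-fold against the MEK inhibitor alone (1.68 ± 0.08, edgeR adjusted p = 4.2e-13). The MEK inhibitor alone gave 0.08 ± 0.08 (edgeR adjusted p = 0.53). Rosiglitazone raised it 1.38-fold (0.46 ± 0.08, edgeR adjusted p = 0.000158), and the control lines differed by 0.11 ± 0.08 (edgeR adjusted p = 0.215). Nampt was lower with rosiglitazone than with BMP2 plus the MEK inhibitor, by 1.19 ± 0.08 log2 units (edgeR adjusted p = 1.65e-11).

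On the scale of level per length, Nampt had the highest mean of the 8 genes with rosiglitazone (70.6 ± 2.74 CPM per kb), in control MTΔECad cells (51.3 ± 1.65) and with the combination (161 ± 14.1). With the MEK inhibitor alone Adipor2 was highest, at 53.0 ± 1.62 CPM per kb, above Nampt at 50.4 ± 0.926. In Py2T-LT controls Adipor1 was at 48.1 ± 1.77 CPM per kb and Nampt at 47.5 ± 1.36, within the spread of the libraries (SD, n = 2 throughout). With rosiglitazone, Adipoq reached 69.3 ± 5.88 CPM per kb, which overlapped Nampt and exceeded Adipor2 at 47.5 ± 2.28 CPM per kb. With BMP2 plus the MEK inhibitor Adipoq was at 15.4 ± 0.346 CPM per kb, and with the MEK inhibitor alone at 17.7 ± 1.7 CPM per kb, below both receptor genes.

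Counted together, 3 of the 6 tested genes rose with rosiglitazone (Adipoq, Adipor2, Nampt), where 13.2% of all genes tested were called, 7.95% higher and 5.26% lower. With the combination 4 rose against control (Adipoq, Adipor1, Adipor2, Nampt), where 38.5% of all genes were called, 19.1% higher and 19.4% lower. With the MEK inhibitor alone 2 rose (Adipoq, Adipor2) and Cdh13 fell, where 16.5% of all genes were called, 8.98% higher and 7.52% lower. Between the combination and the MEK inhibitor alone 3 were higher and 1 lower, where 37.3% of all genes were called, 17.9% higher and 19.4% lower. Between the MTΔECad and Py2T-LT controls 2 were higher and 2 lower, where 61% of all genes were called, 29.3% higher and 31.7% lower. Between rosiglitazone and the combination all 6 differed, 4 higher and 2 lower, where 63.4% of all genes were called, 30.7% higher and 32.7% lower. Both comparisons count Lep as higher, a gene that passed the count filter through the MTΔECad libraries alone. Within Py2T-LT cells Lep had 0 counts and could not be called. Adipoq, counted as lower between the control lines, had 1 count against 9 there and was not called by DESeq2. The comparisons within Py2T-LT share libraries, so their counts are not independent. With any 1 library left out, the count for the combination against control was 2 or 3, in place of 4.

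The effect of rosiglitazone in MTΔECad cells was set against that of BMP2 plus the MEK inhibitor in Py2T-LT cells by a test of the difference itself, where 24.8% of all genes were called, 13.3% with a positive and 11.6% with a negative difference. The rosiglitazone effect was the larger for Adipor2, by 1.39 ± 0.11 log2 units (edgeR adjusted p = 2.43e-09), and the smaller for Nampt, by -1.30 ± 0.11 (edgeR adjusted p = 8.12e-09). For Adipoq the difference was 4.99 ± 1.08 (edgeR adjusted p = 0.00166), but leaving out Py2T-LT control replicate 2 gave 2.94 (adjusted p = 0.346). For Adipor1 it was -0.33 ± 0.10 (edgeR adjusted p = 0.0234), a call that ended in 5 of the 8 fits that left out 1 library (adjusted p 0.0563 to 0.117). Cdh13 showed a difference of -0.004 ± 0.12 (edgeR adjusted p = 1).

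**Figure D4:**
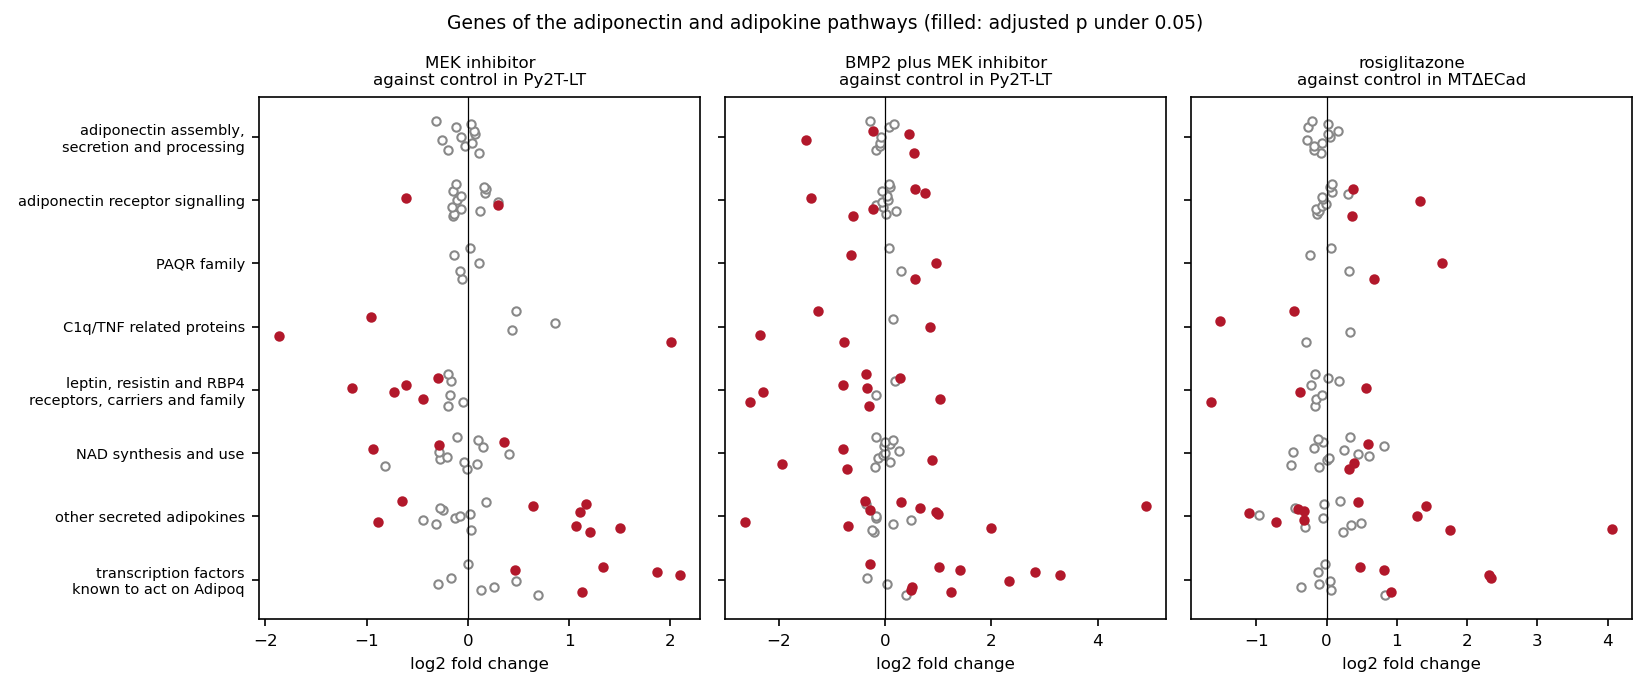
Log2 fold change of the tested genes of 8 lists around adiponectin and the other adipokines in 3 comparisons (filled, edgeR adjusted p under 0.05); genes whose mean was under 0.209 CPM (3 counts) in 1 of the 2 groups are left out of the drawing. Most filled points of the transcription factor list lie right of 0 in each panel.

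Among transcription factors known to act on Adipoq, 12 of 13 were tested. With rosiglitazone 5 rose (median log2 difference 0.27, beside -0.02 over all genes), with BMP2 plus the MEK inhibitor 8 rose and 1 fell (0.76 beside 0.002), and with the MEK inhibitor alone 5 rose (0.47 beside 0.01). Over all genes 7.95%, 19.1% and 8.98% rose in these comparisons. The list was not split into factors that raise and factors that lower Adipoq, so its counts give no direction of action. Nfatc4 rose by 2.34 ± 0.34 log2 units with rosiglitazone (4.02 ± 0.625 against 0.783 ± 0.221 CPM), and Id3 by 2.32 ± 0.19 with the combination. Pparg, whose product is the receptor that rosiglitazone binds, was at 62.5 ± 0.988 CPM with rosiglitazone and 68.0 ± 1.04 CPM in control MTΔECad cells (edgeR adjusted p = 0.502). In Py2T-LT cells Pparg was at 25.05 ± 0.0117 CPM with the combination, 12.9 ± 1.35 CPM with the MEK inhibitor and 3.54 ± 0.562 CPM in controls. Control MTΔECad cells had 19.2 times the Pparg of control Py2T-LT cells (edgeR adjusted p = 6.31e-17). Adipoq was near the floor in both, at 1 and 9 counts, and its relation to Pparg was not tested. Nr1h3, the gene of the oxysterol receptor LXRα, rose by 2.31 ± 0.19 log2 units with rosiglitazone, 3.28 ± 0.33 with the combination and 2.10 ± 0.38 with the MEK inhibitor. Rxra, whose product pairs with PPARγ on DNA, rose by 0.82 ± 0.08 with rosiglitazone and by 1.40 ± 0.08 with the combination, and Cebpa, a C/EBP factor of adipocytes, by 0.92 ± 0.13 with rosiglitazone and 1.13 ± 0.13 with the MEK inhibitor alone.

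Genes for assembling and processing adiponectin in the endoplasmic reticulum numbered 12, of which 11 were tested. None was called with rosiglitazone by edgeR (3 at an unadjusted p under 0.05) or with the MEK inhibitor alone (1), and DESeq2 called 0 in either comparison. Over all genes 13.2% and 16.5% were called there, and 11 genes are too few to set 0 calls apart from these shares. With BMP2 plus the MEK inhibitor 2 rose and 2 fell, where 38.5% of all genes were called, a share near that of the list. Ero1a, an oxidase that helps release adiponectin from the endoplasmic reticulum, was 0.55 ± 0.10 log2 units higher with BMP2 plus the MEK inhibitor than in controls (65.8 ± 8.49 against 45.0 ± 1.37 CPM; edgeR adjusted p = 0.000144). P4ha2, a prolyl hydroxylase subunit, fell by 1.49 ± 0.13 there. Between the control lines 5 were higher and 1 lower in MTΔECad, where 61% of all genes were called, a share near that of the list. Erp44, which retains adiponectin inside the cell, was 0.55 ± 0.09 log2 units higher.

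In the PAQR family to which both adiponectin receptors belong, 5 of the 9 other genes were tested. Paqr4 rose with rosiglitazone by 1.65 ± 0.11 log2 units (61.2 ± 6.02 against 19.6 ± 1.23 CPM; edgeR adjusted p = 3.02e-10), close in size to Adipor2. It rose by 0.96 ± 0.12 with BMP2 plus the MEK inhibitor. Mmd, another family gene, rose by 0.67 ± 0.08 with rosiglitazone and by 0.56 ± 0.08 with the combination. Paqr7 fell by 0.63 ± 0.23 with the combination (edgeR adjusted p = 0.0353). Of the 5, 2 rose with rosiglitazone, where 7.95% of all genes did. With the combination 2 rose and 1 fell, where 38.5% of all genes were called. With the MEK inhibitor alone, edgeR and DESeq2 called 0 of the 5, and 0 had an unadjusted p under 0.05. Over all genes 16.5% were called there, and 5 genes are too few to set 0 calls apart from that share.

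Downstream of the receptors, all 17 listed genes were tested, and 3 rose with rosiglitazone, 4 rose and 3 fell with the combination, and 2 rose and 1 fell with the MEK inhibitor. Over all genes the shares called were 13.2%, 38.5% and 16.5%, close to those of the list. With rosiglitazone a fold could be given for 16 of the 17. Leaving out 1 library left 1 or 2 called with rosiglitazone and 1 to 3 with the MEK inhibitor. Ppargc1a, a coactivator of mitochondrial genes, rose with rosiglitazone by 1.33 ± 0.15 log2 units (16.0 ± 2.62 against 6.36 ± 0.849 CPM). Ppara, a target of AdipoR2 signalling that drives fatty acid oxidation, had 99 counts with the combination and 39 with the MEK inhibitor alone, against 0 in Py2T-LT controls, so it was at least 16.7-fold and at least 6.4-fold higher. Appl1, the adaptor that binds both receptors, was at 188 ± 0.261 CPM in control MTΔECad cells and 75.3 ± 4.7 CPM in control Py2T-LT cells (log2 1.32 ± 0.09, edgeR adjusted p = 3.28e-11). Prkaa2, a catalytic subunit gene of AMPK, had 0 counts in control MTΔECad cells and 330 in control Py2T-LT cells, at least 51.7-fold lower.

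Of the 14 relatives of adiponectin in the C1q and TNF group, 8 were tested; 2 rose and 4 fell with the combination (3 to 6 called with 1 library left out), and 1 rose and 2 fell with the MEK inhibitor alone, where 38.5% and 16.5% of all genes were called. A fold could be given for 7 and 6 of the 8 in these comparisons, the rest being at or under the floor in both groups. C1qtnf1 fell by 2.34 ± 0.12 log2 units with BMP2 plus the MEK inhibitor and by 1.86 ± 0.12 with the inhibitor alone (12.2 ± 0.821 and 17.03 ± 0.322 CPM, against 61.9 ± 8.51 CPM in controls). C1ql3 rose by 2.01 ± 0.17 with the MEK inhibitor (32.0 ± 4.95 against 7.96 ± 2.16 CPM). With rosiglitazone 2 of the 8 fell, and 0 to 2 did with 1 library left out, C1qtnf5 and C1qtnf6 being the 2. In that comparison a fold could be given for only 4 of the 8, and 13.2% of all genes were called, 5.26% lower. C1qtnf12, a secreted regulator of glucose handling, was 9.83 times as high in control MTΔECad as in control Py2T-LT cells (19.0 ± 1.33 against 1.93 ± 0.897 CPM).

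Among receptors, carriers and relatives of leptin, resistin and RBP4, 13 of 19 had a row and 11 were tested. Lepr, the leptin receptor gene, was at 0.0661 ± 0.00495 CPM in control MTΔECad cells, which expressed Lep, and at 0.589 ± 0.126 CPM in Py2T-LT controls, its highest group mean. Jak2, the kinase bound to that receptor, rose by 1.03 ± 0.08 log2 units with the combination against control (402 ± 1.77 against 196 ± 10.3 CPM) and fell by 0.44 ± 0.08 with the MEK inhibitor alone. Cap1, a receptor of resistin in human monocytes, was at 618 ± 17.3 CPM with rosiglitazone and 692 ± 2.58 CPM in control MTΔECad cells, while Retn was at the floor. On the retinoid side, the retinol dehydrogenase gene Rdh10 was at 40.4 ± 2.43 CPM in control MTΔECad and 1492 ± 80.01 CPM in control Py2T-LT cells. Crabp2, a retinoic acid carrier, fell by 1.64 ± 0.18 with rosiglitazone and, at 13.2 ± 0.182 against 77.0 ± 3.75 CPM, to 0.171 of its control level with BMP2 plus the MEK inhibitor.

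Of 18 genes for making and using NAD, the pathway of Nampt, 16 were tested, and with BMP2 plus the MEK inhibitor 1 rose and 3 fell (2 to 4 called with 1 library left out), with a median log2 difference of -0.01, where 38.5% of all genes were called and the median was 0.002. A fold could be given for 15 of the 16 there. The gene that rose was Nadk2, the mitochondrial NAD kinase, by 0.88 ± 0.09 (64.8 ± 0.563 against 35.2 ± 1.71 CPM; edgeR adjusted p = 1.06e-07). Aox1, an oxidase that acts on methylated nicotinamide, fell by 0.72 ± 0.08 there. With rosiglitazone 3 rose, where 7.95% of all genes did, led by Nt5e, a surface nucleotidase, by 0.59 ± 0.09 (40.8 ± 0.228 against 27.1 ± 0.49 CPM) and Nadk, the cytosolic NAD kinase, by 0.38 ± 0.07.

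Of 29 other secreted adipokines and their receptors, 22 were tested. A fold could be given for 21 with rosiglitazone, 19 with the combination and 19 with the MEK inhibitor alone. With rosiglitazone 7 rose and 5 fell, with BMP2 plus the MEK inhibitor 8 rose and 4 fell, and with the MEK inhibitor alone 7 rose and 2 fell. Over all genes 13.2%, 38.5% and 16.5% were called in these comparisons, and the list's median log2 differences were 0.19, 0.15 and 0.03, beside -0.02, 0.002 and 0.01 over all genes. Cfd, the gene of the fat cell protease adipsin, had 1302 counts with rosiglitazone and 1 in control MTΔECad cells, a ratio of 1330 (238 to 52400). It had 44 counts with the combination and 100 with the MEK inhibitor, against 1 in Py2T-LT controls, ratios of 44.1 (7.52 to 1780) and 95.6 (16.8 to 3810). Rarres2, the gene of chemerin, had 204 counts with rosiglitazone and 1 in its controls, a ratio of 208 (36.9 to 8250). Angptl4, a PPAR target that inhibits lipoprotein lipase, rose by 4.06 ± 0.13 log2 units with rosiglitazone (88.7 ± 10.2 against 5.30 ± 0.209 CPM). Fstl1, a secreted glycoprotein, was at 361 ± 4.41 CPM in control MTΔECad cells and 2.24 ± 0.549 CPM in control Py2T-LT cells, which placed it with Lep and Cdh13 on the MTΔECad side.

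Across the 10 libraries, genes among those whose pattern was most like that of Adipoq, by Pearson correlation of log2(CPM + 0.5), were Cidec (r = 0.994), Cd36 (0.990), Plin1 (0.979) and Slc36a2 (0.978). Cidec and Plin1 encode lipid droplet proteins and Cd36 a fatty acid transporter. Those most like Nampt were Itgad (0.992), Krt15 (0.981) and Ltbp2 (0.979), and those most like Adipor2 were Tmcc3 (0.979), Dnaja3 (0.967) and Casp8 (0.962). Cdh13 was most like Pfkp (0.998), Atp9a and Hrct1 (both 0.998), Lep most like Smarca2, Gm10406 and Tmem119 (0.999 each), and Adipor1 most like Tspan4 (0.968), Bhlhe40 (0.962) and Apbb1 (0.961). These values describe libraries that fall into 2 lines and 5 groups, and were picked as the highest among 13149 genes.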

How the data were processed

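The authors deposited 1 table of whole-number read counts per gene, with 18103 NCBI gene identifiers and 10 libraries, as unnormalised counts. Reads were aligned with STAR to mm10, per the submitters' processing notes. How reads were counted, with what annotation and whether by strand, is not given in the sources used here. RNA was extracted from 2 independent experiments, and 200 ng went into a stranded total RNA kit, per the labels' protocols, which also speak of poly-A RNA. RefSeq names (GRCm38.p6) matched 18057 identifiers, and the other 46 held 0.799% of the counts.

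From these counts, edgeR 4.0.16 in R 4.3.3 was run with filterByExpr (13149 genes kept), TMM scaling and 1 mean for each of 5 groups over all 10 libraries (5 residual degrees of freedom), and tested with glmQLFTest and Benjamini-Hochberg adjustment at 0.05. SEs were derived from the F statistic (log2 fold change over the root of F). Groups with 1 to 9 counts got a count ratio with an exact conditional 95% interval, and groups at 0 a bound against 3 counts per library. On simulated counts for rosiglitazone against control (12820 genes, 200 changed), 87.5% of changes of 1 log2 unit and 100% of 2 were recovered. Apart from those changes, the simulation gave each gene 1 mean over all 10 libraries and so held no difference between the lines. Its recovery does not cover genes near 0 in a group, such as Adipoq and Lep. No other gene's transcripts matched those of the 8 at 95% identity over 100 bases on the same strand. Alternatives were DESeq2 1.42.0, other scalings and filters, the compared groups alone, a replicate block and leaving out each library.

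The genes and lists were chosen with earlier results of these data known. From each list, at most 4 called genes per comparison were eligible to be named, by size of change, with a mean of at least 1 CPM in a compared group. Pparg with rosiglitazone, Lepr and Cap1 were named after their values were seen. Some genes that this rule or the likeness rule picks are not reported here.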

Additional observations from a re-analysis of the deposited data

Results flagged for a closer look

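For 4 of the genes, the effect of rosiglitazone in MTΔECad cells differed from that of BMP2 plus the MEK inhibitor in Py2T-LT cells by edgeR's test of the difference itself. The difference was 4.99 log2 units for Adipoq (edgeR adjusted p = 0.00166), the larger effect being that of rosiglitazone. It was 1.39 for Adipor2 (edgeR adjusted p = 2.43e-09), -0.33 for Adipor1 (edgeR adjusted p = 0.0234) and -1.30 for Nampt (edgeR adjusted p = 8.12e-09). For Adipoq, Adipor2 and Nampt both treated libraries lay above both controls in each line, and for Adipor1 they lay below them with rosiglitazone and above them with the combination of BMP2 and the inhibitor. Adipor1 was not called with rosiglitazone (edgeR adjusted p = 0.313). The share of all genes whose libraries separate in this way is not given here. The lines received different treatments, so line and treatment cannot be told apart in these differences. The Adipoq value rests on 1 control count in MTΔECad cells and 9 in Py2T-LT cells. Its call ended without Py2T-LT control replicate 2 (2.94, adjusted p = 0.346), and that of Adipor1 ended in 5 of 8 fits that left out 1 library (adjusted p 0.0563 to 0.117).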

How the results depend on the processing

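Of 437 alternative fits of the 8 genes' folds, 411 kept direction and call, 16 lost the call and 10 changed sign. All 10 sign changes were of uncalled values near 0. Adipor1 between the control lines was 0.00726 without MTΔECad control replicate 2 and ran from -0.0995 to 0.00726 with 1 library left out. Cdh13 for the combination against control ran from -0.115 to 0.112 with 1 library left out. Cdh13 with rosiglitazone was -0.0114 with upper quartile factors and ran from -0.0325 to 0.0477 with 1 library left out. Its difference between the effects ran from -0.103 to 0.123. The cause was not tested. The number of genes called with rosiglitazone was 1737 in the fit of all libraries, 1112 without MTΔECad control replicate 1, and 1112 to 1338 over the 4 fits that left out 1 library. The number of the 8 genes called for the combination against control was 4, and 2 to 3 with 1 library left out, and for the difference between effects 4, and 2 to 4. Among list counts, 32 of 648 moved by over 1.5 times. The labels do not say that replicate numbers mark a shared experiment, and the libraries' deviations did not show it in every pair of groups (correlation -0.165 to 0.179), so the numbers were not used as pairs. With a replicate block the genes called were 2245 for the MEK inhibitor, 5148 for the combination and 1833 for rosiglitazone, with 3, 4 and 3 of the 8 genes called as before. Depth limits Retn and Rbp4 in all libraries, Lep in Py2T-LT cells and Adipoq in both controls. With 2 libraries per group, a fit without 1 library assumes that the lone one varies like the other groups.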
